A study of Mus musculus with 12 samples.

Results

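The Zic family of zinc finger transcription factors was followed through poly(A) RNA-seq of mouse embryos, with 4 genes, Zic1, Zic2, Zic4 and Zic5, taken by symbol from the 36255 genes of the count table. The 11 libraries fell into 6 groups. Those at 9.5 days post coitum (dpc) were labelled Skp1aKO, Skp1acont PI, Skp1acont, wt PI and wt, and a further wt group was taken at 9.0 dpc. Skp1acont PI had 1 library and each other group had 2. Skp1a encodes an adaptor of SCF ubiquitin ligases, and the series asks how it bears on Polycomb-silenced genes. Replicates 1 and 2 carry the lot numbers 1 and 2, and a second Skp1acont PI library was not analysed here. The labels name the tissue only as embryo, while the series text speaks of embryonic stem cells or embryoid bodies. The library titles all carry the tag "mb", which is not spelled out, so whether whole embryos or a part of them were used is not known. The labels also do not spell out "cont" or "PI" and give no strain, Cre driver or allele for the Skp1a groups. Nor do they say that libraries came from separate embryos. The p-values therefore rest on library-to-library spread alone, part of which may be technical.

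Zic proteins carry a set of C2H2 zinc fingers related to those of the Gli and Glis factors, bind GC-rich DNA and act as activators, repressors or partners of other factors. In the vertebrate embryo they are known for roles in the neural plate border, the dorsal neural tube, the neural crest, the midline and the somites. Zic1 and Zic4 share a locus and act together in the cerebellum and dorsal midline, while Zic2 and Zic5 share another and are needed for forebrain midline formation and for neural tube closure.

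Both pairs are arranged head to head. On GRCm38, in the GENCODE M21 annotation, Zic1 (ENSMUSG00000032368.14) lies at chr9:91358058-91365810 on the minus strand and Zic4 (ENSMUSG00000036972.14) at chr9:91362413-91389348 on the plus strand, with annotated gene starts 3397 bases apart and 60 bases of exon in common on opposite strands. Zic5 (ENSMUSG00000041703.7) lies at chr14:122456795-122465677 on the minus strand and Zic2 (ENSMUSG00000061524.8) at chr14:122475435-122479852 on the plus strand, with starts 9758 bases apart. The labels do not say whether counting used strand, so reads from the shared 60 bases, which make up 1.05% of the exon length of Zic1 and 0.58% of that of Zic4, cannot be assigned. Zic4 also has 468 bases of exon in common with Gm37477, a locus annotated as yet to be tested experimentally, on the opposite strand.

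The members were close enough in sequence to ask whether a read could be shared between them. The longest run of identical coding bases in any pair of them was 42, between Zic1 and Zic4, and no window of 50 coding bases was identical in any pair. The stretch is shown because it is the place where a short read could fit both genes, in lower case with capitals at each base that differs from Zic1. It starts at coding base 729 of Zic1 and at coding base 456 of Zic4, counted from the first coding base.
Zic1: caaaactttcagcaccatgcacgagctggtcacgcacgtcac
Zic4: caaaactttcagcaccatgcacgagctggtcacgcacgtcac
Zic2: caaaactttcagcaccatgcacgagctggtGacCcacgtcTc
Zic5: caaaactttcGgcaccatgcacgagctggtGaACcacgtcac
Zic2 had 39 of these 42 bases in common with Zic1, and Zic5 had 38.

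The promoters of the Zic1 and Zic4 pair are shown because these neighbours were called in the same direction in each comparison where both passed. They are the 250 bases before the RefSeq gene start on GRCm38.p6, for Zic1 chr9:91365769-91366018 on the minus strand and for Zic4 chr9:91368722-91368971 on the plus strand. The RefSeq start of Zic4 lies inside the longer GENCODE gene. Capitals mark CCAAT boxes.
Zic1: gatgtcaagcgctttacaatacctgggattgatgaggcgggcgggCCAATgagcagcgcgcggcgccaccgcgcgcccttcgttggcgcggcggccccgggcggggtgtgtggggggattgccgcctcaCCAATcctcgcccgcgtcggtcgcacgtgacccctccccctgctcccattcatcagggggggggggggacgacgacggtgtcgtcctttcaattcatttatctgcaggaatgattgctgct
Zic4: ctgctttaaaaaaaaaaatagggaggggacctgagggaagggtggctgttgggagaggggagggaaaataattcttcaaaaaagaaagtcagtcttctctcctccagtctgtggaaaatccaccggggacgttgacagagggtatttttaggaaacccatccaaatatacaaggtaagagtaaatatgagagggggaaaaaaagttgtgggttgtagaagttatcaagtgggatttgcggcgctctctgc
Zic1 had 27 CpG dinucleotides and a GC content of 66.0% in this window, and Zic4 had 4 and 44.4%, against a median of 6 CpG over 32851 promoters. The Zic5 window, the only other one matched of the 4 members, had 11 CpG and a GC content of 62.4%. The letters CCAAT occurred in 2 places in the Zic1 window and in neither of the other windows, searched on both strands, and 33.9% of all promoters held them. The GLI core GACCACCC, the Zic core CCTGCTG and the TATA box TATAAA, searched in the same way, were in none of the 3 windows and in 0.703%, 8.44% and 12.4% of all promoters.

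Total counts ran from 2320599 to 11607085 per library, and the 4 Zic genes took 0.00746% to 0.0331% of them. Skp1a had 104 to 303 CPM (library-size scaled counts, here with TMM factors) in the 5 Skp1a-labelled libraries, against 930 to 1337 CPM in the 6 wt libraries. Skp1a RNA did not set the libraries labelled Skp1aKO (199 and 212 CPM) apart from Skp1acont (303 and 104 CPM). The log2 fold change between them was 0.013 ± 0.51 SE. Against wt at 9.5 dpc it was -2.33 ± 0.54 in Skp1aKO and -2.34 ± 0.54 in Skp1acont. The labels are used as given, though Skp1a RNA does not bear out the difference that they name. Mitochondrial genes took 5.98% to 15.8% of counts in the Skp1a-labelled libraries, against 2.44% to 4.01% in wt. The background rate, the median over 1492 protein-coding chemoreceptor genes taken as silent in these embryos of counts per kb as a share of the library total, without TMM factors, was 3.04 to 14.3 times that of the lowest library in Skp1a-labelled libraries, against 1 to 1.73 times in wt. With TMM factors applied, it was 1.75 to 7.21 times the lowest in Skp1a-labelled libraries, against 1 to 1.51 times in wt. Skp1acont replicate 2 had the fewest counts and the highest background and stood apart from the others. Each comparison with a Skp1a label is given with and without it where the call differs. No neuroepithelium marker of the 12 listed was at 0 in any library, and their summed level was 1265 to 1331 CPM in Skp1aKO, 1412 CPM in Skp1acont PI, 574 to 1559 CPM in Skp1acont, 1629 to 1720 CPM in wt PI, 3280 to 3766 CPM in wt at 9.5 dpc and 949 to 986 CPM in wt at 9.0 dpc.

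Zic1 was the most abundant member per kb of exon in wt embryos at 9.5 dpc, and Zic5 was in wt PI and at 9.0 dpc. At 9.5 dpc, wt libraries held 37.1 ± 0.551 CPM per kb of Zic1, 23.8 ± 1.53 of Zic5, 7.10 ± 0.494 of Zic4 and 0.372 ± 0.194 of Zic2 (SD, n = 2). No neighbours in that order overlapped. By the longest coding transcript in place of all annotated exons, an alternative chosen after seeing the data, Zic4 had 18.9 ± 1.31 CPM per kb and kept its place after Zic5 at 24.4 ± 1.57. Annotated Zic4 exons add up to 10335 bases and its longest coding transcript has 3891, so the place of Zic4 turned on this choice in other groups. At 9.0 dpc the order in wt was Zic5 at 13.2 ± 2.37, Zic1 at 6.64 ± 0.147, Zic2 at 0.707 ± 0.359 and Zic4 at 0.669 ± 0.141 CPM per kb, where Zic2 and Zic4 did not differ beyond their spread. By the longest coding transcript Zic4 came before Zic2 there, at 1.78 ± 0.374 against 0.834 ± 0.424 CPM per kb. In the libraries labelled Skp1aKO the first neighbours were Zic1 at 9.996 ± 0.751 and Zic5 at 7.52 ± 0.858 CPM per kb, while by the longest coding transcript Zic4 stood second, at 8.50 ± 1.59 against 7.72 ± 0.880 for Zic5, within their spread. In Skp1acont, Zic1 at 8.50 ± 3.18 and Zic5 at 8.27 ± 3.92 CPM per kb did not differ beyond their spread. By the longest coding transcript Zic4 was first in Skp1acont, at 9.26 ± 2.999 CPM per kb, and again within the spread of Zic1 at 8.63 ± 3.22 and Zic5 at 8.48 ± 4.02.

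Zic2 was near the limit of detection throughout. It had 16 and 25 counts in the libraries labelled Skp1aKO, 10 in Skp1acont PI, 7 and 8 in Skp1acont, 0 and 5 in wt PI, 4 and 5 in wt at 9.5 dpc, and 8 and 11 in wt at 9.0 dpc. The count of 0 in wt PI replicate 1 allows up to 3 counts, or 1.03 CPM. From the background rate and the exon length of Zic2, 7.15 and 7.83 counts were expected in the libraries labelled Skp1aKO, 3.75 in Skp1acont PI, 3.61 and 9.42 in Skp1acont, 1.32 and 5.49 in wt PI, 1.06 and 3.15 in wt at 9.5 dpc, and 1.13 and 3.56 in wt at 9.0 dpc. The expected background thus exceeded the whole count in Skp1acont replicate 2 and in both wt PI libraries. In bulk samples, fewer cells of a type and less RNA per cell cannot be told apart, here or in the comparisons below.

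**Figure D1:**
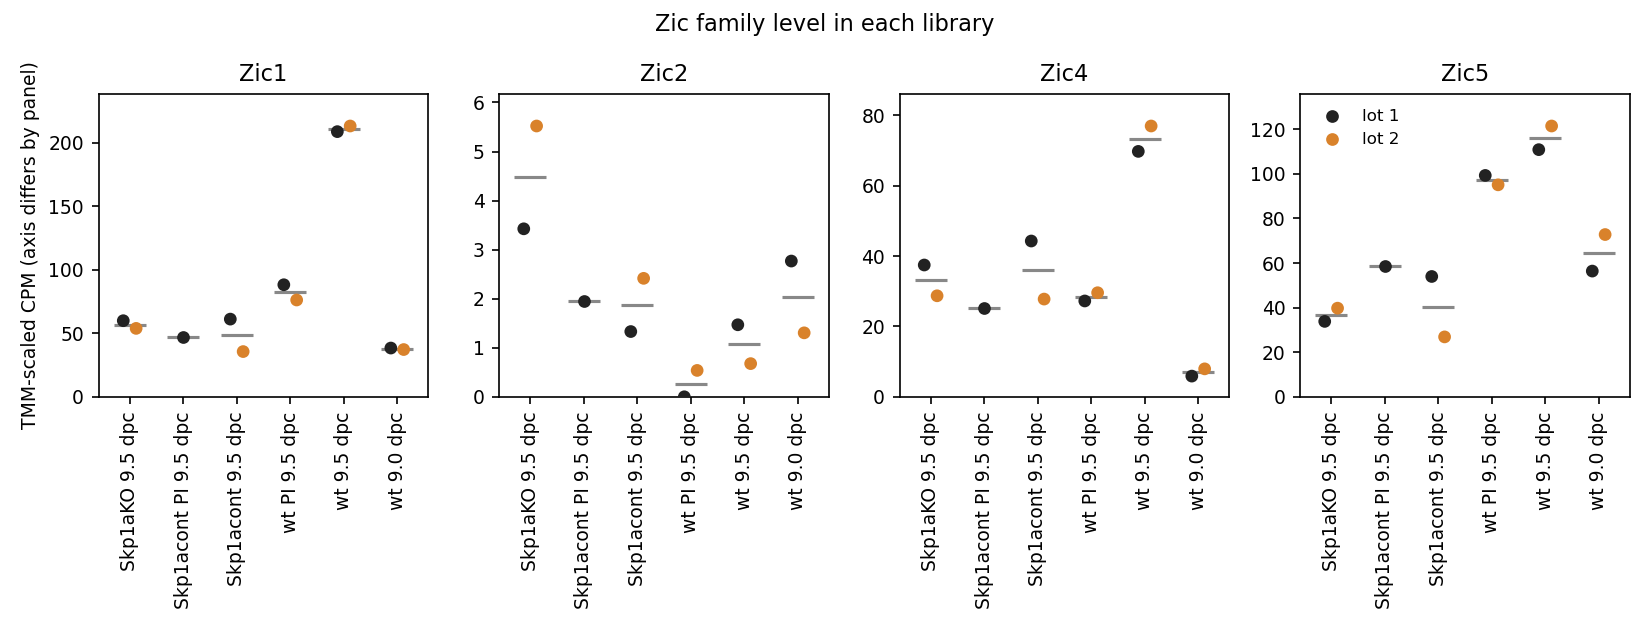
TMM-scaled CPM (y axis, a different range in each panel) of each Zic gene in each library, by group (x axis); points are libraries, black for lot 1 and orange for lot 2, and grey lines are group means. Zic1 and Zic4 are highest in both wt libraries at 9.5 dpc, Zic4 is lowest at 9.0 dpc, and Zic2 stays under 6 CPM in every library.

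The makeup of the family differed by group (counts per kb of exon, as a share of the 4 genes). Zic1 made up 47.3% and 42.5% in the libraries labelled Skp1aKO, 35.5% in Skp1acont PI, 40.5% and 41.0% in Skp1acont, 40.3% and 37.3% in wt PI, 55.1% and 53.5% in wt at 9.5 dpc, and 34.1% and 28.9% in wt at 9.0 dpc. Zic5 made up 31.1% and 36.5% in the libraries labelled Skp1aKO, 51.2% in Skp1acont PI, 41.6% and 36.0% in Skp1acont, 52.8% and 54.2% in wt PI, 34.035% and 35.5% in wt at 9.5 dpc, and 58.2% and 65.7% in wt at 9.0 dpc. Zic1 was thus the larger share in both wt libraries at 9.5 dpc, and Zic5 in the 4 wt libraries of the other groups. Zic4 ran from 2.87% in wt at 9.0 dpc, replicate 1, to 17.6% in Skp1acont replicate 2. The expected background was 23.9% and 36.7% of the Zic4 count in these libraries. The shares of all members are set within a library and do not depend on how libraries are scaled. They include this background and rest on the length of all exons, 10335 bases for Zic4.

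**Figure D2:**
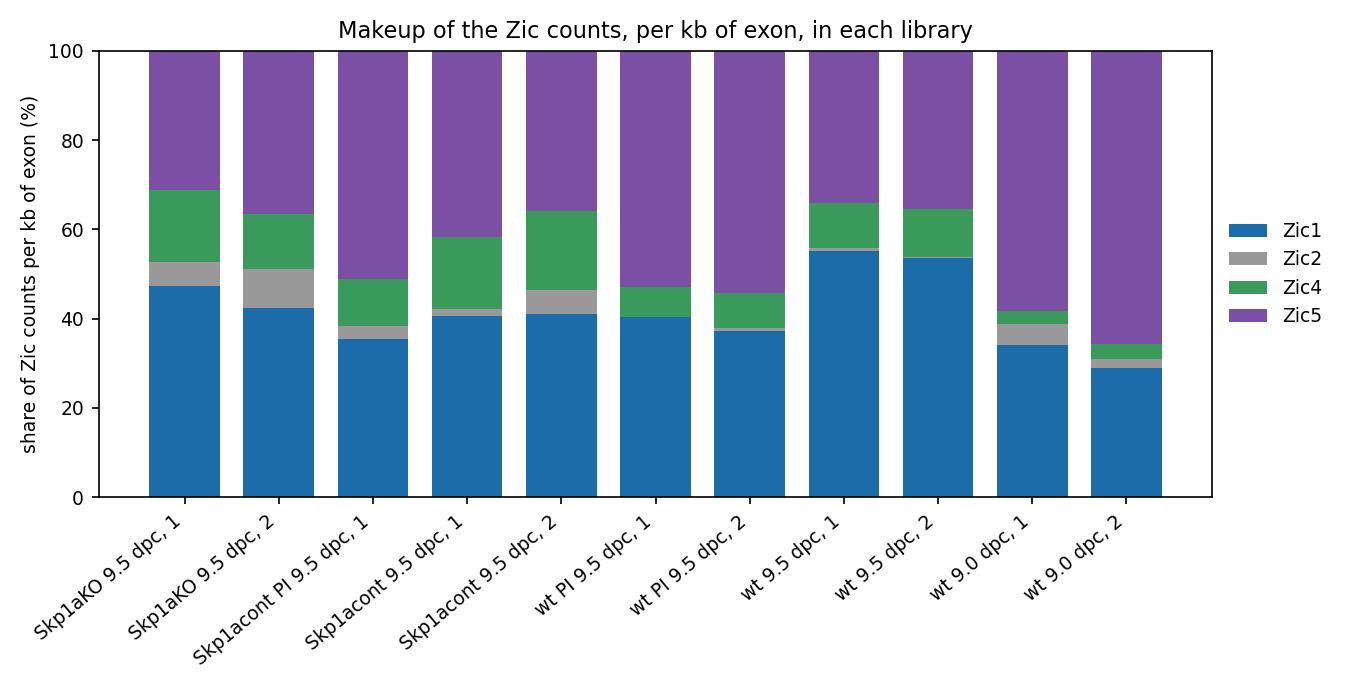
Share of each member in the Zic counts per kb of exon (y axis, %) in each of the 11 libraries (x axis, group and replicate). Zic1 (blue) takes 55.1% and 53.5% in wt at 9.5 dpc, and Zic5 (purple) takes 58.2% and 65.7% in wt at 9.0 dpc.

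Between 9.0 and 9.5 dpc in wt embryos, the 3 Zic genes with enough counts to test all rose. Zic4 had 69.7 and 77.0 CPM at 9.5 dpc, against 5.88 and 7.94 CPM at 9.0 dpc, and was 10.5-fold higher (log2 fold change 3.39 ± 0.16 SE, adjusted p = 1.64e-06). Zic1 had 209 and 213 CPM at 9.5 dpc, against 38.4 and 37.2 CPM at 9.0 dpc, and was 5.71-fold higher (2.51 ± 0.11, adjusted p = 1.52e-06). The neighbours of chromosome 9 thus had the largest changes of the 3, with no overlap between the stages. Zic5 had 111 and 121 CPM at 9.5 dpc, against 56.4 and 72.8 CPM at 9.0 dpc, a 1.83-fold difference (0.87 ± 0.12, adjusted p = 0.000754). The stages did not overlap for any of these 3 genes. How many of all genes lacked overlap was not counted, so this says nothing particular about the Zic genes. Zic2 did not pass the filter on low counts. The test was edgeR's quasi-likelihood F test on the 6 wt libraries with Benjamini-Hochberg adjustment over 13126 genes, of which 31.7% were called at an adjusted p under 0.05 and 15.0% were called higher at 9.5 dpc. Within lot 1 and lot 2 the folds were 11.9 and 9.69 for Zic4, 5.44 and 5.73 for Zic1, and 1.97 and 1.67 for Zic5. With all 11 libraries in the fit, where 1.60% of 18837 genes were called, Zic1 (adjusted p = 0.0104) and Zic4 (0.00389) passed, while Zic5 (0.404) did not.

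In wt PI embryos, set against wt embryos without PI at the same stage, Zic1 and Zic4 fell and Zic5 did not pass the test. Zic1 had 88.3 and 76.3 CPM in wt PI, against 209 and 213 CPM in wt, and fell by 1.37 ± 0.10 on the log2 scale (adjusted p = 7.29e-05). Zic4 had 27.2 and 29.6 CPM in wt PI, against 69.7 and 77.0 CPM in wt, and fell by 1.37 ± 0.14 (adjusted p = 0.000239). For both genes the wt PI libraries lay well below both wt libraries. Zic5 had 99.3 and 95.1 CPM in wt PI, against 111 and 121 CPM in wt, with a log2 fold change of -0.27 ± 0.12 (adjusted p = 0.133). Of the 13126 genes tested, 28.0% were called and 12.4% were called lower in wt PI. With the lot as a replicate block, which pairs the wt libraries, the Zic5 difference passed (adjusted p = 0.0377). The block also raised the share of all genes called, to 38.9%. With all 11 libraries in the fit, 0.0690% of genes were called and none of the Zic genes was among them.

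Set against wt at 9.0 dpc, wt PI at 9.5 dpc held more Zic1, Zic4 and Zic5. Zic4 was 4.04-fold higher (2.02 ± 0.16 log2, adjusted p = 0.0001), with 27.2 and 29.6 CPM in wt PI, against 5.88 and 7.94 CPM in wt at 9.0 dpc. Zic1 was 2.20-fold higher (1.14 ± 0.10, adjusted p = 0.000227) and Zic5 1.52-fold higher (0.60 ± 0.12, adjusted p = 0.0109). These 3 genes stood between their levels in wt at 9.0 dpc and at 9.5 dpc without PI, which are the same wt libraries that the 2 preceding comparisons used. Of all genes tested, 15.6% were called and 8.60% were called higher in wt PI. Leaving out wt PI replicate 1, wt PI replicate 2 or wt 9.0 dpc replicate 1 ended the Zic5 call. Each omission leaves 1 library in a group, and calls over all genes fell too. Over all fits leaving out 1 library, the log2 fold change of Zic5 ran from 0.43 to 0.80. With all 11 libraries in the fit, 0.0106% of genes were called and no Zic gene was.

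Genes that work around the Zic family gave these counts, set beside a median log2 fold change over all genes of -0.02 for 9.5 against 9.0 dpc and 0.01 for wt PI against wt. Of all genes tested, 31.7% and 28.0% were called in these comparisons. Of 12 neuroepithelium markers, 10 were called higher and 0 lower at 9.5 against 9.0 dpc (median 1.19), with Fabp7, a fatty acid binding protein of radial glia, at 1079 ± 43.7 CPM at 9.5 dpc and 105 ± 8.18 CPM at 9.0 dpc, and Vim, an intermediate filament gene, at 1240 ± 193 CPM and 264 ± 7.81 CPM (SD, n = 2 each). In wt PI against wt, 9 of the 12 were called lower and 0 higher (median -0.82), Fabp7 with 214 ± 5.49 CPM in wt PI and 1079 ± 43.7 CPM in wt, and Nes, the gene of the progenitor filament nestin, with 29.7 ± 0.843 CPM and 81.4 ± 12.5 CPM. The neuroepithelium markers that were called went in the same direction as Zic1 and Zic4 in both comparisons, and their part in the Zic differences was not tested. Taken as a percentage of the summed neuroepithelium level, a measure chosen after seeing the data, Zic1 stood at 5.13% and 4.68% in wt PI, 5.55% and 6.50% in wt at 9.5 dpc, and 4.05% and 3.77% in wt at 9.0 dpc. Zic4 stood at 1.58% and 1.82% in wt PI, 1.85% and 2.35% in wt at 9.5 dpc, and 0.62% and 0.805% in wt at 9.0 dpc. Zic5 stood at 5.77% and 5.83% in wt PI, 2.94% and 3.70% in wt at 9.5 dpc, and 5.94% and 7.38% in wt at 9.0 dpc. Among the 3 wt groups, Zic5 was lowest on this measure, and Zic1 and Zic4 highest, in wt at 9.5 dpc without PI. Fabp7 and Vim, at 1079 and 1240 CPM, made up most of the summed level there, which was 3280 to 3766 CPM. At 9.0 dpc they had 105 and 264 CPM of 949 to 986 CPM, so the measure partly follows these 2 genes.

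Ventral neural tube genes, a list of 12 with the floor plate and Hedgehog genes, were called mostly in the direction opposite to Zic1, in comparisons that share the wt libraries at 9.5 dpc. At 9.5 against 9.0 dpc, 7 of the 9 tested were called lower and 1 higher (median -1.43), and in wt PI against wt, 7 of 9 were called higher and 0 lower (median 1.14). Foxa2, a floor plate transcription factor, had no count in either wt library at 9.5 dpc and was at least 10.4-fold lower there than at 9.0 dpc (11.6 ± 0.185 CPM). It was at least 11.8-fold higher in wt PI (13.4 ± 0.549 CPM), each bound set against the limit of 3 counts per library. Foxa1, its close relative, had 0.135 ± 0.191 CPM at 9.5 dpc and 11.4 ± 2.01 CPM at 9.0 dpc, and Nkx2-9, a ventral homeobox gene, had 18.3 ± 1.10 CPM in wt PI and 0.203 ± 0.287 CPM in wt. With all 11 libraries in the fit, 0 higher and 4 lower of 12 ventral genes were called at 9.5 against 9.0 dpc and 3 higher in wt PI against wt, while 2 and 0 neuroepithelium markers were called.

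Dorsal neural tube genes, a list of 20, did not follow one direction. At 9.5 against 9.0 dpc, 5 of 18 tested were called higher and 7 lower (median -0.42). Rspo1, a Wnt agonist of the roof plate, had 17.6 ± 2.02 CPM at 9.5 dpc and 3.97 ± 0.253 CPM at 9.0 dpc, while Sox10 and Foxd3, both neural crest factors, had 0.569 ± 0.232 and 0.318 ± 0.0681 CPM at 9.5 dpc, against 10.5 ± 1.69 and 4.49 ± 0.49 CPM at 9.0 dpc. In wt PI against wt, 2 were called higher and 4 lower, with Lmx1b, a roof plate and isthmus factor, at 8.99 ± 0.0495 CPM in wt PI and 3.44 ± 1.24 CPM in wt, and Pax3, a dorsal paired-box factor, at 36.2 ± 1.85 CPM and 69.8 ± 11.2 CPM. Of the BMP pathway, 2 of 18 were called higher and 6 lower at 9.5 against 9.0 dpc, though the median was 0.24 and library totals or the lot as a replicate block called 6 higher and 6 lower, and 3 higher and 4 lower were called in wt PI against wt. Id1, a BMP response gene, had 52.1 ± 0.929 CPM at 9.5 dpc and 141 ± 1.69 CPM at 9.0 dpc, and 141 ± 7.78 CPM in wt PI. Of the relatives Gli1 to Gli3 and Glis1 to Glis3, 1 of 5 tested was called higher at 9.5 against 9.0 dpc, Glis2 with 30.1 ± 0.498 CPM at 9.5 dpc and 17.4 ± 2.80 CPM at 9.0 dpc, and 0 were called in wt PI against wt. Of 8 genes reported as Zic targets, 4 were tested, with 0 higher and 2 lower at 9.5 against 9.0 dpc (Foxd3 and Ephb1) and 0 higher and 1 lower in wt PI against wt (Snai2).

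Markers of other cell types were counted in the same comparisons, where 31.7% and 28.0% of all genes tested were called. A count near these shares says nothing particular about a cell type. At 9.5 against 9.0 dpc, 3 higher and 3 lower of 8 head mesenchyme markers, 0 higher and 2 lower of 4 tested paraxial mesoderm markers, 1 higher and 0 lower of 8 endothelial markers and 3 higher and 0 lower of 7 primitive erythroid markers were called. The summed erythroid level was 14835 to 19737 CPM at 9.5 dpc, against 7726 to 8002 CPM at 9.0 dpc, and 7196 to 9107 CPM in wt PI. In wt PI against wt, 0 higher and 2 lower head mesenchyme, 1 and 1 paraxial, 1 and 0 endothelial and 0 and 3 erythroid markers were called. Zic genes are also used in somites and head mesenchyme, and the part of these cells in the Zic differences was not tested.

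**Figure D3:**
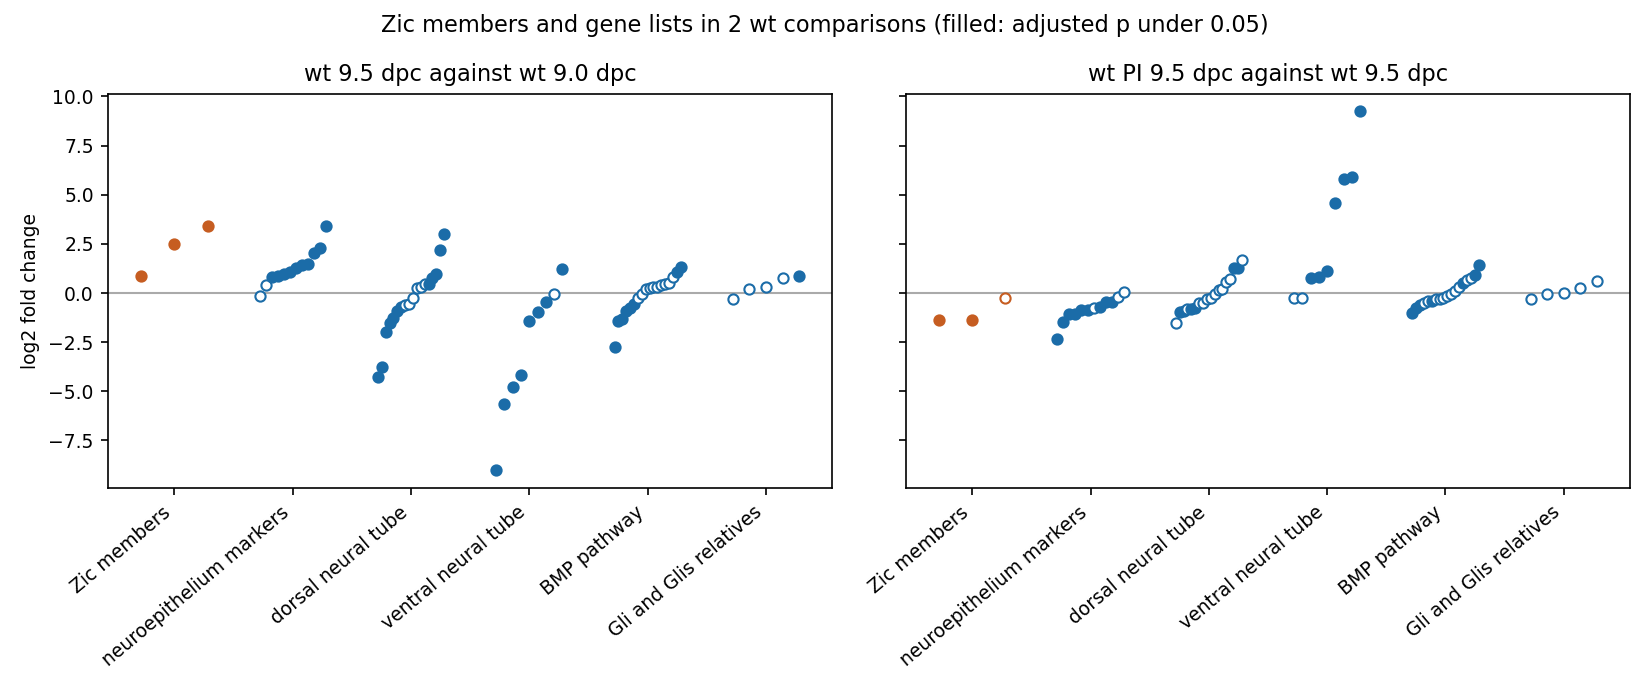
Log2 fold changes (y axis) of the Zic members (orange) and of the genes of 5 lists (blue) in wt at 9.5 against 9.0 dpc (left) and wt PI against wt at 9.5 dpc (right); each point is a gene, sorted within its list, and filled points passed an adjusted p under 0.05. Zic and neuroepithelium genes lie mostly above 0 on the left and below 0 on the right, and ventral neural tube genes the reverse.

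In the libraries labelled Skp1aKO, 3 of the 4 Zic genes were lower than in wt at 9.5 dpc, and Zic2 did not pass the test. Zic1 had 59.9 and 53.9 CPM in Skp1aKO, against 209 and 213 CPM in wt, and fell by 1.89 ± 0.34 on the log2 scale (adjusted p = 0.00643). Zic5 had 33.8 and 39.7 CPM in Skp1aKO, against 111 and 121 CPM in wt, and fell by 1.66 ± 0.37 (adjusted p = 0.012). Zic4 had the smallest of these differences. It had 37.5 and 28.7 CPM in Skp1aKO, against 69.7 and 77.0 CPM in wt, and fell by 1.15 ± 0.31 (adjusted p = 0.021). Zic2 had 3.42 and 5.52 CPM in Skp1aKO, against 1.47 and 0.676 CPM in wt (2.17 ± 0.79, adjusted p = 0.0549). In the fit of all 6 groups 36.4% of 18837 genes were called and 18.7% were called lower. Whether 3 of 4 genes exceeds this share was not tested, and the calls changed under library totals, as given below.

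The Skp1acont libraries, which carry the other Skp1a label, showed the same 3 genes lower than the same wt libraries. Zic1 had 61.2 and 35.6 CPM in Skp1acont, against 209 and 213 CPM in wt, and fell by 2.12 ± 0.34 (adjusted p = 0.00758). Zic5 had 54.0 and 26.9 CPM in Skp1acont, against 111 and 121 CPM in wt, and fell by 1.52 ± 0.37 (adjusted p = 0.0165). Replicate 2 was the lower of the Skp1acont libraries for each of these genes. Zic4 had 44.3 and 27.8 CPM in Skp1acont, against 69.7 and 77.0 CPM in wt, and fell by 1.02 ± 0.31 (adjusted p = 0.0302). Zic2 had 1.33 and 2.41 CPM in Skp1acont, against 1.47 and 0.676 CPM in wt (0.89 ± 0.84, adjusted p = 0.396). Here 36.4% of genes were called and 17.1% were called lower.

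How firmly these differences stood depended on the scaling and on single libraries. TMM called 3323 genes higher and 3529 lower in Skp1aKO against wt and 3642 higher and 3224 lower in Skp1acont against wt, while library totals called 6804 higher and 1400 lower, and 7068 higher and 1247 lower. The median of all genes was 1.03 by library totals and 0.24 by TMM in Skp1aKO, and 1.07 and 0.34 in Skp1acont, with 43.6% (7.43% lower) and 44.1% (6.62% lower) of genes called. Under library totals Zic1 fell by 1.09 (adjusted p = 0.0168) in Skp1aKO, Zic2 rose by 2.98 (0.0211), and Zic4 at -0.36 (0.286) and Zic5 at -0.85 (0.0608) did not pass. In Skp1acont, Zic1 (-1.41, 0.00785) passed and Zic4 (-0.30, 0.363) and Zic5 (-0.81, 0.0695) did not. As a percentage of the summed neuroepithelium level, which does not depend on scaling and was not tested, the genes did not share a direction. Fabp7 and Vim made up most of that level in wt at 9.5 dpc. Fabp7 had 60.3 CPM in Skp1aKO and 99.9 CPM in Skp1acont, against 1079 CPM in wt. Zic1 stood at 4.50% and 4.26% in Skp1aKO and 3.92% and 6.20% in Skp1acont, against 5.55% and 6.50% in wt at 9.5 dpc, with both Skp1aKO libraries and 1 of the Skp1acont libraries below both wt libraries. Zic4 stood at 2.81% and 2.27% in Skp1aKO and 2.84% and 4.83% in Skp1acont, against 1.85% and 2.35% in wt, with both Skp1acont libraries above wt and Skp1aKO overlapping it. Zic5 overlapped between the groups, with 2.54% and 3.14% in Skp1aKO and 3.46% and 4.68% in Skp1acont, against 2.94% and 3.70% in wt. With the background subtracted from the counts, Zic4 no longer passed in Skp1aKO (-0.75, adjusted p = 0.0621) or in Skp1acont (-0.71, adjusted p = 0.0704).

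In Skp1aKO against wt, leaving out a Skp1aKO or wt library leaves 1 library in that group. Most or all of the Zic calls were then lost. Calls over all genes fell in each of these fits too, so the loss was not particular to the Zic genes. Over all fits leaving out 1 library, the log2 fold change ran from -1.96 to -1.72 for Zic1. It ran from -1.34 to -0.92 for Zic4 and from -1.77 to -1.44 for Zic5. Without Skp1acont replicate 2, whose spread the fit shares, 67.9% of genes were called in Skp1aKO against wt and all 4 Zic genes were among them, Zic2 as higher (2.39 ± 0.57, adjusted p = 0.000738). In Skp1acont against wt the same omission kept Zic1, Zic4 and Zic5 called, at -1.66, -0.61 and -0.98, with 39.1% of genes called. Leaving out a wt library leaves 1 in that group, and most or all of the Zic calls were lost there, while calls over all genes fell too. Over all fits leaving out 1 library, the log2 fold change in Skp1acont against wt ran from -2.53 to -1.66 for Zic1. It ran from -1.37 to -0.61 for Zic4 and from -2.08 to -0.98 for Zic5. With only the compared groups in the fit, no Zic gene was called, and 0% of all genes were.

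The genes around the family were counted in the same comparisons, beside 36.4% of all genes called by TMM in each. A count near that share says nothing particular about a list. In Skp1aKO against wt, 8 of 12 ventral neural tube genes were called higher and 0 lower (median 1.84, against 0.24 for all genes), and in Skp1acont against wt 4 were higher and 0 lower (median 1.31, against 0.34). Foxa2 had 11.3 ± 2.07 CPM in Skp1aKO and no count in wt, at least 8.89-fold higher. Of the neuroepithelium markers 1 was called higher and 2 lower in Skp1aKO, and 0 higher and 5 lower in Skp1acont (medians -0.45 and -0.51). By library totals their direction turned, with 3 higher and 1 lower in Skp1aKO and 4 higher and 2 lower in Skp1acont (medians 0.34 and 0.20, below the all-gene medians). Fabp7 had 60.3 ± 14.9 CPM in Skp1aKO and 1079 ± 43.7 CPM in wt, Sox1, an early neural factor, had 30.7 ± 4.32 and 69.4 ± 3.52 CPM, and Sox3, of the same subfamily, had 16.3 ± 0.50 and 8.39 ± 2.13 CPM. Of the Gli relatives 2 of 6 were called higher and 2 lower in Skp1aKO, while by library totals 2 were higher and 0 lower (median 0.99). Gli3, whose repressor form limits Hedgehog target genes, had 106 ± 11.8 CPM in Skp1aKO and 300 ± 40.1 CPM in wt, and Gli1, a Hedgehog response gene, had 5.30 ± 0.571 CPM and 2.41 ± 0.736 CPM. In Skp1acont 0 were higher and 1 lower, and by library totals none was called.

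The dorsal list had 1 higher and 3 lower of 18 in Skp1aKO and 1 higher and 2 lower in Skp1acont. By library totals it had 3 higher and 0 lower, and 2 higher and 2 lower. The BMP pathway had 0 higher and 5 lower of 20 in both, but by library totals 2 higher and 2 lower in Skp1aKO and 2 higher and 1 lower in Skp1acont. The medians of both lists were below 0 by TMM (-0.33 to -0.54) and above 0 by library totals (0.27 to 0.43), so neither has a direction that holds under both scalings. Among the BMP genes called lower by TMM in Skp1aKO was the receptor gene Bmpr1a, at 43.0 ± 2.45 CPM in Skp1aKO and 151 ± 5.90 CPM in wt. Of 5 tested reported Zic targets, 2 were higher and 0 lower in Skp1aKO, and 1 higher and 1 lower in Skp1acont. Markers of other cells were counted too, beside the same 36.4% of all genes called by TMM. In Skp1aKO 2 higher and 1 lower of 7 paraxial mesoderm, 1 and 2 of 8 head mesenchyme, 1 and 3 of 8 endothelial and 0 and 4 of 7 erythroid markers were called. In Skp1acont the counts were 1 and 1, 1 and 3, 1 and 1, and 0 and 4. By library totals these were 2 and 0, 3 and 1, 2 and 1, and 0 and 4 in Skp1aKO and 2 and 1, 2 and 2, 2 and 0, and 0 and 4 in Skp1acont, so the erythroid list alone kept its counts. The summed erythroid level was 645 to 883 CPM in Skp1aKO, 604 to 2190 CPM in Skp1acont and 14835 to 19737 CPM in wt. The part of these cells, of the background and of the mitochondrial share in the Zic differences was not tested.

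Between the libraries labelled Skp1aKO and Skp1acont no Zic gene passed the test. The log2 fold changes were 0.23 ± 0.33 for Zic1, 1.28 ± 0.74 for Zic2, -0.13 ± 0.31 for Zic4 and -0.14 ± 0.36 for Zic5, with adjusted p from 0.842 to 1. The Skp1aKO libraries lay within the range of the Skp1acont libraries for Zic1, Zic4 and Zic5, and above both of them for Zic2. Of all genes 0% were called by edgeR, with 1308 at an unadjusted p under 0.05 and 95 called by DESeq2. None of the 4 members had an unadjusted p under 0.05, and DESeq2 also called 0 of the 4. Without Skp1acont replicate 2, 27.3% of genes were called, with Zic2 higher (1.75, adjusted p = 0.0492). Without Skp1acont replicate 1, 31.3% were called, with Zic1 higher (0.66, adjusted p = 0.00675), so the calls in this comparison turned on which Skp1acont library was used.

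The lone Skp1acont PI library, which is assumed to vary like the other groups, held 47.4 CPM of Zic1, 1.96 of Zic2, 25.2 of Zic4 and 58.7 of Zic5. Set against Skp1acont, no Zic gene passed (0% of genes called by edgeR and 867 at an unadjusted p under 0.05, 0 of 4 members at an unadjusted p under 0.05 and 0 by DESeq2). Its values lay between the Skp1acont libraries for Zic1 and Zic2, below both for Zic4 and above both for Zic5. Without Skp1acont replicate 1, 50.6% of genes were called and Zic5 was among them (1.10, adjusted p = 0.00069). Set against wt PI, no Zic gene passed either, with 0.441% of genes called by edgeR, 1 of 4 members at an unadjusted p under 0.05 (Zic2) and 0 by DESeq2. Zic1 had 47.4 CPM in Skp1acont PI, against 88.3 and 76.3 CPM in wt PI, and Zic5 had 58.7 CPM, against 99.3 and 95.1 CPM. Without Skp1acont replicate 2 in the fit, 43.2% of genes were called, with Zic1 (-0.66, adjusted p = 0.0153) and Zic5 (-0.60, adjusted p = 0.0398) lower and Zic2 higher (2.32, adjusted p = 0.0272).

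Whether PI went with different changes under the Skp1acont and wt labels was tested as a difference of differences, a contrast added after seeing the data. By edgeR's quasi-likelihood test it was 1.33 ± 0.52 for Zic1, with an adjusted p of 0.77. The other members ranged from 0.79 to 1.43, and 0% of all genes passed. Without Skp1acont replicate 2, 2.66% of genes passed, and Zic1 (1.00, adjusted p = 0.0652) did not.

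**Figure D4:**
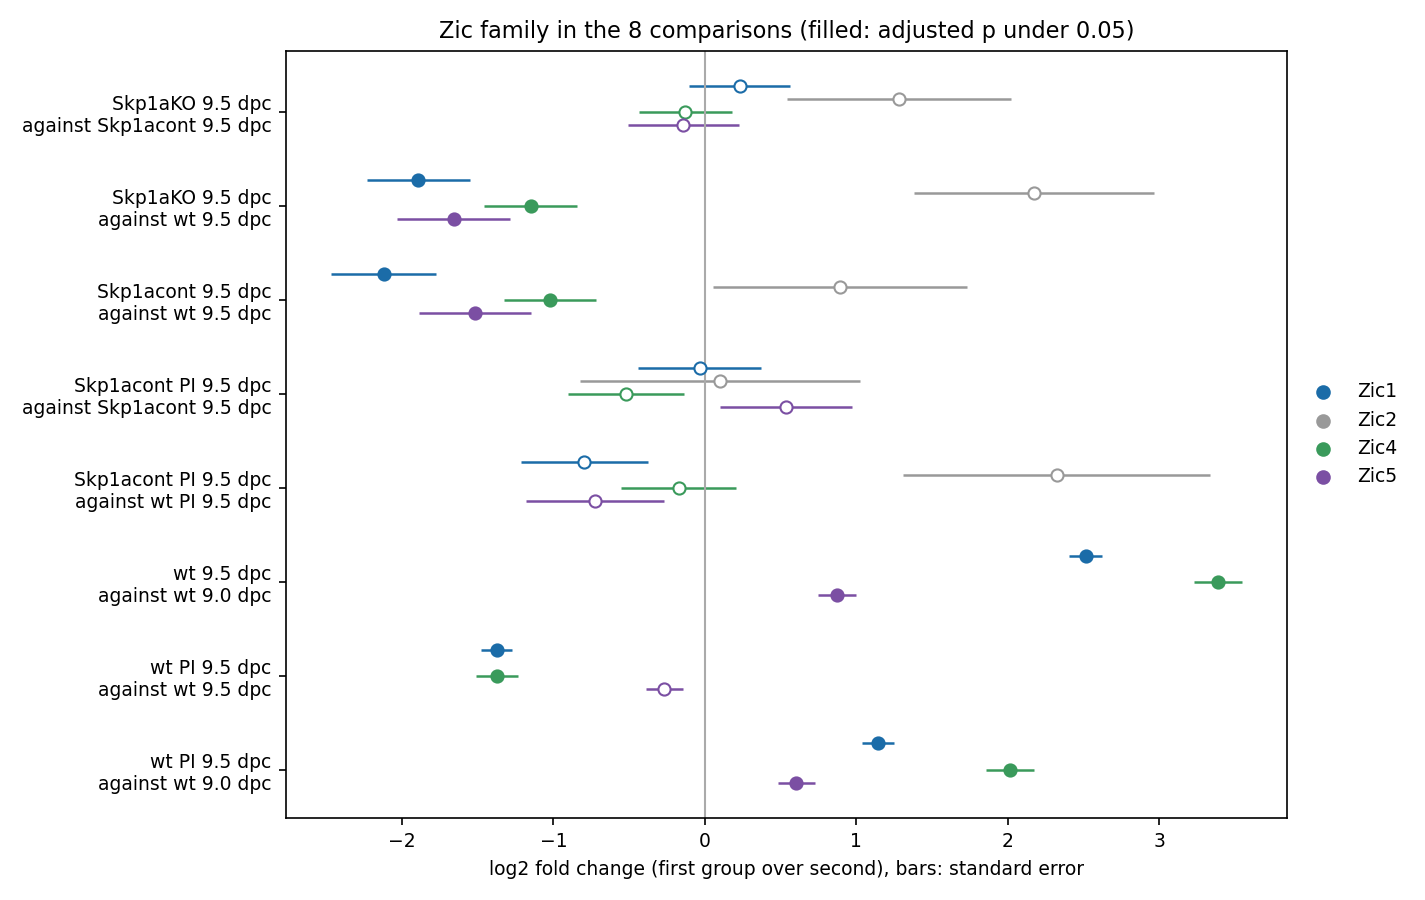
Log2 fold changes (x axis, first group over second) of the Zic genes in the 8 comparisons (y axis), with bars of 1 standard error; filled points passed an adjusted p under 0.05 and open points did not. Zic1, Zic4 and Zic5 are filled on the negative side for Skp1aKO and Skp1acont against wt, and on the positive side for wt at 9.5 against 9.0 dpc.

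Ratios of counts within a library do not depend on scaling. The Zic1 to Zic4 ratio was 1.60 and 1.87 in the libraries labelled Skp1aKO, 1.87 in Skp1acont PI, 1.38 and 1.28 in Skp1acont, 3.23 and 2.58 in wt PI, 2.99 and 2.77 in wt at 9.5 dpc, and 6.37 and 4.66 in wt at 9.0 dpc. The 5 Skp1a-labelled libraries lay below all wt libraries, and the wt libraries at 9.0 dpc lay above all others. On the log2 scale the ratio was 0.66 ± 0.25 in Skp1a-labelled libraries (SD, n = 5) and 1.53 ± 0.14 in wt libraries at 9.5 dpc with and without PI (SD, n = 4), a difference of -0.86. An exact two-sided permutation test gave p = 0.0159, the smallest this design can give, and 0.0159 after Benjamini-Hochberg adjustment over the 3 ratios computed. Here and for the ratios below, the test pooled the groups on each side as if exchangeable and took no account of lots. The Skp1a-labelled libraries also had a higher mitochondrial share than wt, and its part in the ratios was not tested. With the background subtracted the difference was -0.72 and the exact permutation p was 0.0159 (0.0317 adjusted). Within lot 1 it was -0.95 and within lot 2 it was -0.79, groups too small for the exact test to pass.

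The Zic2 to Zic5 ratio on the log2 scale was -3.91 ± 1.06 in Skp1a-labelled libraries and -7.48 ± 1.28 in wt libraries at 9.5 dpc (SD, n = 5 and 4, exact permutation p = 0.0159). The Zic1 to Zic2 ratio was 4.22 ± 0.816 and 7.79 ± 0.978 in the same libraries (exact permutation p = 0.0159). Zic2 was higher relative to both genes in each Skp1a-labelled library than in any wt library at 9.5 dpc, while the wt libraries at 9.0 dpc overlapped the Skp1a-labelled ones. With the background subtracted the differences were 3.54 and -3.52 (exact permutation p = 0.0317 each) and the groups overlapped. These ratios rest on Zic2 counts of 7 to 25 in Skp1a-labelled libraries and 0 to 5 in wt libraries at 9.5 dpc.

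**Figure D5:**
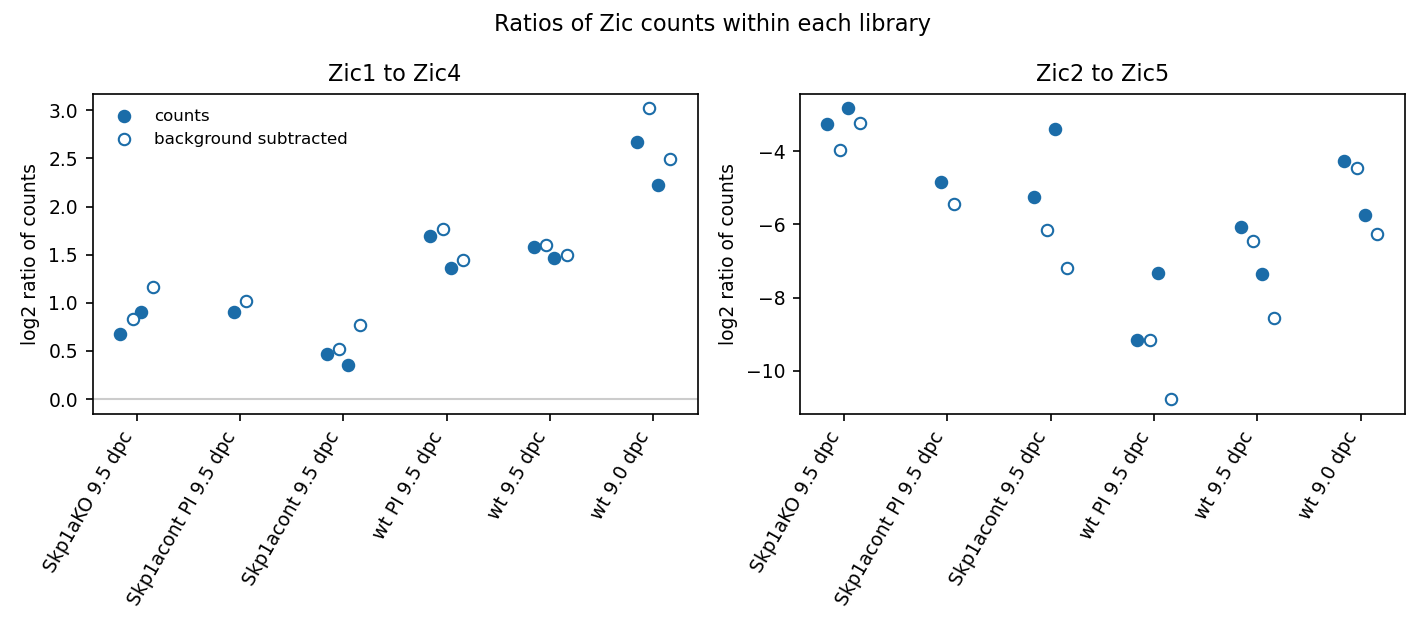
Log2 ratio of counts (y axis) of Zic1 to Zic4 (left) and of Zic2 to Zic5 (right) in each library, by group (x axis); filled points are counts with 0.5 added and open points have the chemoreceptor background subtracted. The Zic1 to Zic4 ratio of all Skp1a-labelled libraries lies below that of every wt library, in both versions of the counts.

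Zic1, Zic4 and Zic5 followed each other more closely in wt libraries than over all libraries, and Zic2 did not follow them in either. Across the 6 wt libraries, log2 CPM of Zic1 and Zic4 had a Pearson r of 0.977 and that of Zic4 and Zic5 of 0.968, while across all 11 libraries the values were 0.767 and 0.240. For Zic1 and Zic5 they were 0.913 and 0.731. The r of Zic2 with Zic1, Zic4 and Zic5 was -0.283, -0.413 and -0.577 in wt and -0.439, -0.185 and -0.738 over all libraries. These are descriptions over libraries that share stage, label and background. Across all 11 libraries, among 8730 genes with a mean of at least 10 CPM, the 5 genes most like Zic1 were Dclk1 (r = 0.985), Hspa4l, Itgb8, Fgfbp3 and Dach1. Those most like Zic4 were Dcx (r = 0.988), a microtubule-associated gene of young neurons, Onecut2, Pou3f3, Elavl4 and Nhlh2. Those for Zic5 included Nudt4 (r = 0.988), Dhx32, Kctd12 and Zfp422, and for Zic2 they were Pdzd2 (r = 0.934), Tmco3, Pelp1, Il6st and Rpl17-ps3.

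Over the 6 wt libraries alone, among 8437 genes, the lists were others. Zic1 was most like Dmxl1 (r = 0.999), Cpe, Dcc, Etfa and Aph1b, and Zic4 most like Gpm6a (r = 0.999), Pank3, Dcx, Nudt4 and Gpm6b, with Dcx on both of its lists. Zic5 was most like Racgap1 (r = 0.999), Elovl6, Exoc5, the dorsal neural tube factor gene Pax7, and Lum, and Zic2 most like Fgfr1 (r = 0.986), Gadd45gip1, Ube4a, Irak1 and Gm4924. With 6 libraries in 3 groups, such values are set mainly by the group means.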

How the data were processed

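Poly(A) RNA-seq of mouse embryos was deposited by the authors as 1 table of whole-number read counts per gene, with no normalization. RNA was isolated with the Qiagen RNeasy Mini Kit and the NEBNext poly(A) module, per the labels' protocols. The submitters' processing notes name Trim Galore 0.6.7 and GRCm38. What aligned and counted the reads, and whether strand was used, is not given in the sources used here. Columns were matched to labels by title, with 11 of 12 labelled libraries analysed.

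The test over all genes was that of edgeR 4.0.16, run in R 4.3.3 (filterByExpr by group, TMM, quasi-likelihood F test with robust estimates, called at an adjusted p under 0.05). Comparisons with a Skp1a label used 1 fit of all 6 groups (18837 genes, biological coefficient of variation 35.4%), and comparisons among wt groups a fit of the 6 wt libraries (13126 genes, 19.6%). The procedure was run on simulated data with a smaller spread between libraries than these data have, and with no outlying library. That run therefore does not show how well the procedure performs at the spread found here. Alternatives were DESeq2 1.42.0, DESeq2 size factors, library totals, no filter, a filter of 1 CPM, other fits, the lot as a block, background subtraction and leaving out each library. Ratios were compared with scipy 1.17.1. A limit of 3 counts stood for a count of 0, and it covers counting error only.

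To see whether lots pair libraries, same-lot libraries were compared: their deviations from the group mean correlated in all 3 pairs of wt groups (r = 0.297 to 0.343 across genes), and from -0.011 to 0.18 in the 7 pairs with a Skp1a label. On these values, and not on the labels, lots were treated as pairs among wt libraries. In each wt group the lot 2 library was also the deeper one, with 9217568 to 11607085 counts against 3392251 to 4007663. Lot and depth thus cannot be told apart among the wt libraries.

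Genes named are the 4 members, up to 2 called genes per direction with the largest change in each of 10 lists (105 genes), Skp1a, the nearest protein-coding neighbours of each locus and the 5 genes most correlated with each member. Values are given for some of the list genes, picked after they were seen. The members and lists were chosen with earlier results of these data known. Annotation came from GENCODE M21, and promoters from RefSeq on GRCm38.p6, where 3 of the 4 members matched. Some rows that the rules would name are not reported here.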

Additional observations from a re-analysis of the deposited data

How the results depend on the processing

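Of the counts of Zic genes called under an alternative, 83 stayed within 1.5 times the reported count and 17 moved. All 43 alternative values of the 3 ratios kept their direction. Leaving out 1 library could not change direction or end a pass, since the groups did not overlap in any of the 3 ratios. Of the 43 values, 34 passed the test. The others have too few libraries to pass: for Zic1 to Zic4, Zic2 to Zic5 and Zic1 to Zic2 the differences were -0.95, 3.17 and -3.31 within lot 1, -0.79, 4.23 and -4.06 within lot 2, and -0.92, 3.03 and -3.43 without the PI libraries. Ratios to Zic2 without a pseudocount could not be had, since Zic2 has a count of 0. Of the values of single members, 287 kept direction and call, 41 lost the call, 12 gained it and 15 changed sign. With all groups in the fit, the Zic genes called were 2 for wt 9.5 against 9.0 dpc, 0 for wt PI against wt 9.5 dpc and 0 for wt PI against wt 9.0 dpc, and the same 2, 0 and 0 with the lot as a replicate block added. With the lot as a replicate block in the reported fits, the counts were 0 in Skp1aKO against Skp1acont and in both Skp1acont PI comparisons. They were 3 in Skp1aKO and in Skp1acont against wt, and 3, 3 and 3 among the wt groups. The block thus changed no call except Zic5 in wt PI against wt. Of all genes, the block called 39.4% in Skp1aKO against wt and 38.5% in Skp1acont against wt. It called 41.7% in wt 9.5 against 9.0 dpc, 38.9% in wt PI against wt 9.5 dpc and 28.5% in wt PI against wt 9.0 dpc. In Skp1acont against wt, 1 was called by library totals and 0 with only the groups compared, and in Skp1acont PI against wt PI, 2 with only the groups compared. Leaving out 1 library gave 0 to 1 called in Skp1aKO against Skp1acont, 0 to 4 in Skp1aKO against wt, 0 to 3 in Skp1acont against wt, 0 to 1 in Skp1acont PI against Skp1acont and 0 to 3 in Skp1acont PI against wt PI. The cause of these shifts was not tested.

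Sign changes concerned values that had not passed the test. In Skp1aKO against Skp1acont, leaving out 1 library gave -0.0869 to 0.66 for Zic1, -0.40 to 0.23 for Zic4 and -0.54 to 0.43 for Zic5. In Skp1acont against wt, Zic2 was -0.46 with background subtracted. In Skp1acont PI against Skp1acont, Zic1 was 0.0363 without a filter, Zic2 was -0.0771 with DESeq2 size factors, -0.0236 with library totals, -0.0947 with DESeq2 and -0.0463 with the 1 CPM filter, and leaving out 1 library gave -0.37 to 0.38 for Zic1 and -0.33 to 0.55 for Zic2. In Skp1acont PI against wt PI, Zic4 was 0.43 with library totals, 0.0579 with background subtracted and -0.23 to 0.0363 leaving out 1 library.

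Over all genes, calls ranged beyond 1.5 times the reported count. In Skp1aKO against wt (6852 reported) they ran from 3684 with background subtracted to 9990 with only the groups compared, and from 281 to 11548 leaving out 1 library. In Skp1acont against wt (6866) they ran from 0 to 8315, and from 13 to 13512 leaving out 1 library. In Skp1aKO against Skp1acont (0) DESeq2 called 95, and leaving out 1 library gave 0 to 5723. In Skp1acont PI against wt PI (83) they ran from 17 with the replicate block to 7998 with only the groups compared, and from 1 to 7347 leaving out 1 library, and in Skp1acont PI against Skp1acont (0) from 14 to 9239. In wt 9.5 against 9.0 dpc (4161) they ran from 244 to 5469, in wt PI against wt 9.5 dpc (3669) from 9 to 5111 and in wt PI against wt 9.0 dpc (2046) from 2 to 3735, each lowest with all groups in the fit, with or without the lot as a replicate block, and highest with the lot as a replicate block. Leaving out 1 library gave 2503 to 3391, 1289 to 3188 and 320 to 1124 in these 3 comparisons.

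The expected background of Zic2 was 14.2% to 118% of its count in the 10 libraries where it had a count, and 1.32 counts in wt PI replicate 1, where it had none.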

Other observations

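The genes next to the Zic loci were followed as values. Around Zic1 and Zic4 on chromosome 9 the 4 nearest protein-coding genes did not share a direction. Plscr1, a phospholipid scramblase gene 860402 bases away, was called lower in Skp1aKO against wt (-2.19 ± 0.37 log2, adjusted p = 0.00518) and in Skp1acont against wt (-1.52 ± 0.35, adjusted p = 0.0148), comparisons that share the wt libraries. In wt at 9.5 against 9.0 dpc it fell by 0.48 ± 0.11 (adjusted p = 0.0108), while Zic1 and Zic4 rose, and in wt PI against wt it rose by 0.60 ± 0.11 (adjusted p = 0.00406), while they fell. Adamts7, a metalloprotease gene 1149987 bases away on the other side, was called higher in Skp1acont against wt (2.39 ± 0.46, adjusted p = 0.00954) and did not pass in Skp1aKO against wt (0.90 ± 0.48, adjusted p = 0.15). Plscr5, 803588 bases away, had 0.79 ± 1.19 in Skp1aKO and 1.69 ± 1.14 in Skp1acont against wt (adjusted p of 0.593 and 0.244), and Tbc1d2b, 1087254 bases away, had -0.43 ± 0.40 and 0.0164 ± 0.394 (adjusted p of 0.391 and 0.977). On chromosome 14 the nearest protein-coding genes, Gm5089 at 5680 bases and Gm10837 at 10734 bases, had no test. The next were Clybl, 54561 bases from the Zic5 end, and Pcca, 54472 bases from the Zic2 end, both genes of mitochondrial enzymes. In Skp1aKO against wt they had log2 fold changes of -1.85 ± 0.57 (adjusted p = 0.0328) and -1.94 ± 0.27 (adjusted p = 0.00357). In Skp1acont against wt they had -1.63 ± 0.56 (adjusted p = 0.047) and -1.27 ± 0.26 (adjusted p = 0.0109). Neither passed in wt at 9.5 against 9.0 dpc (-0.12 ± 0.17 and 0.12 ± 0.14, adjusted p of 0.658 and 0.586), where Zic5 rose. All adjusted p-values are from edgeR's quasi-likelihood test over all genes.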
